A study of Mus musculus with 12 samples.

Results

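The canonical histone cluster genes were taken as every row of the expected-count table whose symbol begins with Hist1h, Hist2h, Hist3h or Hist4h, except Hist1h1c, that had a count above 0 in at least 6 of the 12 libraries. The rule kept 49 of the 22236 genes measured, out of 67 such rows, and 18 rows did not meet it. Of the 49 genes, 4 are named for the linker histone H1, 11 for H2A, 15 for H2B, 8 for H3 and 11 for H4. In the GENCODE M21 annotation, Hist3h2bb-ps is a processed pseudogene, and the identifier listed as Hist2h2bb is Gm42743, a long intergenic non-coding RNA. By symbol, 37 belong to the Hist1 cluster, 8 to Hist2, 3 to Hist3 and 1 to Hist4.

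RNA came from whole hippocampus of male mice aged 3 to 5 months, frozen at least 6 weeks after an injection of adeno-associated virus into the dorsal hippocampus. The mice were C57BL/6J (B6) or DBA/2J (D2). The virus was either AAV9-shRNA-Hp1bp3, a short hairpin RNA against Hp1bp3 (KD), or the scrambled hairpin AAV9-scrmb-shRNA (Ctrl), so Ctrl mice also carried virus and hairpin. Each of the 4 groups, B6 Ctrl, B6 KD, D2 Ctrl and D2 KD, had 3 libraries, 1 mouse each, and the promoter that drives the hairpin is not given in the sources used here. Hp1bp3 encodes heterochromatin protein 1 binding protein 3, a chromatin protein related to the linker histones, and the question was what its knockdown in the hippocampus changes.

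Core histones H2A, H2B, H3 and H4 form the octamer around which DNA is wrapped, and H1 binds the linker DNA between octamers. The canonical genes lie in clusters, hold many near-identical copies, and are transcribed mainly in S phase, when new chromatin is assembled. Their messages are unusual in ending at a conserved stem-loop, bound by SLBP, in place of a poly(A) tail, whereas a second set of histone genes, the replication-independent variants such as H3f3b and H2afz, yields ordinary polyadenylated messages all the time. Some canonical genes also give longer, polyadenylated messages in cells that no longer divide, such as neurons. The libraries were made with an mRNA kit, which captures poly(A) tails, so the values describe the histone RNA that was captured and not all histone RNA.

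The stem-loop was searched as the letters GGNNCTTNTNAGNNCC, in the sense strand only, in the transcripts of GENCODE M21 (GRCm38), to which 44 of the 49 genes matched by identifier. A match is a description of the letters and not proof of a working stem-loop. The motif was found in at least 1 transcript of 34 of the 44 matched genes. Of all 141767 transcripts, counted singly, 0.221% had it, which is a share of transcripts and not of genes. The form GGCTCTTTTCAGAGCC was the one found in 20 genes and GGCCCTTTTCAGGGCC in 6. The sequences below are those of the abundant Hist3h2a and Hist2h2aa1, of the H3 gene with the widest strain difference, and of 3 H4 genes that differed between strains, shown to let the 16-base stem-loop be compared. Capitals mark the stem-loop, with up to 5 bases on either side, 5′ to 3′ in the sense of the transcript.
Hist3h2a: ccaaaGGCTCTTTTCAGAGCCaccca
Hist2h2aa1: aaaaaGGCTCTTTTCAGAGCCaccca
Hist2h3c1: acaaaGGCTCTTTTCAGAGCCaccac
Hist1h4i: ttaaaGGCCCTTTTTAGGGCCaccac
Hist1h4j: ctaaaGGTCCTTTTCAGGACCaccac
Hist4h4: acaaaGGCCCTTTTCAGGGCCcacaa
The H2A and H3 genes shown here had the same 16 bases, and the 3 H4 genes each had another form.

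The place of the stem-loop in the annotated transcript split the genes. In 15 genes the longest transcript ended within 100 bases after the stem-loop, the canonical form. In 18 genes it ran further, as in Hist3h2a, where 1643 bases follow the stem-loop, and in 11 no stem-loop was found, as in the spliced transcript of Hist1h2bc. The letters AATAAA, the usual signal for a poly(A) tail, stood in the last 50 bases of at least 1 transcript of 13 of the 44 matched genes. Of all transcripts, counted singly, 26.6% had them, which is a share of transcripts and not of genes. These classes are those of the annotated longest transcript, and the counts do not show from which form the reads came. Of all counts per 1000000 counts of the library (CPM) of the 49 genes, 50.4% lay on genes whose transcript runs past the stem-loop, 35.1% on genes without one and 14.1% on genes that end at it. The median level per kilobase of the longest transcript was 0.643 CPM for genes running past, 0.215 CPM for genes ending at the stem-loop and 0.214 CPM for genes without one, and the ranges of the 3 sets overlapped widely.

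Promoters were read from RefSeq (GRCm38.p6, 300 bases around the start) for 43 of the genes. The letters CCAAT, on either strand, were present in 36 of them (83.7%), against 37.4% of all 32851 promoters, and TATAAA in the sense of the gene in 21 (48.8%), against 8.32%. In 5 places an H2A and an H2B gene were transcribed away from each other from overlapping promoters. The 2 promoters below are that of the most abundant gene, Hist3h2a (chr11:58954435-58954734, plus strand), and that of Hist1h2bq (chr13:21810150-21810449, minus strand). The latter was identical over all 300 bases to the promoter of its copy Hist1h2br (chr13:21833493-21833792, plus strand). Capitals mark CCAAT, in either direction, and TATAAA.
Hist3h2a promoter: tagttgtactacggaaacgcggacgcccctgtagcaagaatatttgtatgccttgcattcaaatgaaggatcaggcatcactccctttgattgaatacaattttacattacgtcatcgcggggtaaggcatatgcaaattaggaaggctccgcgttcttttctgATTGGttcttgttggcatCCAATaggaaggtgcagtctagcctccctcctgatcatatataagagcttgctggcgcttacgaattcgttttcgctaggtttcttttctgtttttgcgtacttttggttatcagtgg
Hist1h2bq promoter: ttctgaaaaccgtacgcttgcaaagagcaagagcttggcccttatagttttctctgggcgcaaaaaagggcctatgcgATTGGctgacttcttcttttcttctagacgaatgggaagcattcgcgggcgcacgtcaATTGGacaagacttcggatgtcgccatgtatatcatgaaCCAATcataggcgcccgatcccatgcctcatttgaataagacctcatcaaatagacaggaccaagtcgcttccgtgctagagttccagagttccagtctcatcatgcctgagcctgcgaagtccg

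Total expected counts, RSEM estimates of reads per gene, ran from 18213084 to 39420219 per library, of which the 49 genes took 0.0123% to 0.0207%. Hp1bp3, the target, checked the labels. Its normalized count was 8826 to 9372 in B6 Ctrl libraries and 5429 to 7633 in B6 KD ones, and in D2 6504 to 7002 in Ctrl and 4878 to 6941 in KD. It fell by 2028 with the hairpin, which 400 exact permutations of treatment within strains put at a 2-sided p = 0.015. A single library did not separate: the one labelled D2 KD 3 stood at 6941, within the scrambled-hairpin libraries of its strain, and results that turn on it are given without it as well. Markers of choroid plexus epithelium, a tissue next to the hippocampus, varied from 59.3 to 5125 summed CPM over 7 genes, and libraries of every group were among the high ones. Neuronal markers (7 genes) summed to between 7357 and 10555 CPM, and lymphocyte markers (5 genes) to no more than 3.73 CPM. In whole tissue, fewer cells of a type and less RNA per cell cannot be told apart.

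In B6 the 49 genes together reached 136 ± 5.17 CPM (SD, n = 3 in each group) with the scrambled hairpin and 163 ± 28.5 CPM with the Hp1bp3 hairpin, after TMM scaling. In D2 the respective sums were 150 ± 21.1 and 155 ± 43.0 CPM. All 4 groups overlapped, with D2 KD 2 highest at 204 CPM and D2 KD 3 lowest at 123 CPM. The 11 replication-independent genes summed to 697 ± 35.7 CPM in the B6 Ctrl mice and 814 ± 47.1 CPM in the B6 KD mice, without overlap, and to 724 ± 63.6 and 775 ± 83.0 CPM in the respective D2 groups, with overlap. In B6 the ratio of KD to Ctrl was 1.17 for the sum of these genes and 1.203 for that of the 49 genes. The median log2 fold change of the 11 replication-independent genes in B6 was -0.057 and none was called, so their sum does not stand for each gene. By class, H2B took 46.8% of the CPM, H2A 40.6%, H3 5.63%, H4 5.30% and H1 1.71%. The 3 genes of the Hist3 cluster alone held 33.9%, the 8 of Hist2 24.6% and the 37 of Hist1 40.3%.

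The levels were concentrated in few genes: the 8 highest held 87.6% of the CPM. Hist3h2a, an H2A gene, stood first with 40.5 CPM over all libraries and Hist1h2bc, an H2B gene, second with 39.0 CPM. The others were Hist2h2aa1 (H2A, 15.6 CPM), Hist2h2be (H2B, 12.0 CPM), Hist3h2ba (H2B, 10.4 CPM), Hist1h2be (H2B, 6.93 CPM) and the H3 genes Hist2h3c1 (4.42 CPM) and Hist2h3c2 (3.46 CPM). Per kilobase of the longest transcript the order changed, with Hist1h2bc at 33.7 CPM, Hist2h2aa1 at 29.5, Hist3h2a at 18.9, Hist3h2ba at 16.9 and Hist2h2be at 4.58. In B6 Ctrl, Hist1h2bc had 30.7 ± 2.62 and Hist2h2aa1 21.5 ± 4.08 CPM per kilobase, while in D2 Ctrl they had 29.1 ± 5.08 and 33.0 ± 6.15, which did not differ beyond their spread. Hist3h2a (18.0 ± 1.79 in B6 Ctrl) and Hist3h2ba (14.5 ± 1.37) were closer, and in D2 Ctrl their levels of 18.6 ± 1.64 and 16.3 ± 3.95 did not differ beyond their spread. The highest H4 gene was Hist1h4i (2.45 CPM) and the highest H1 gene Hist1h1e (2.04 CPM).

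After the filter on low counts 26 of the 49 genes were tested, among 15853 genes in all. These were by symbol 2 H1, 6 H2A, 8 H2B, 3 H3 and 7 H4 genes, with the pseudogene Hist3h2bb-ps among the H2B ones. The 23 others never exceeded 15.08 expected counts in a library, or 0.172 CPM on average, and were not tested. Among the tested genes, Hist1h2ap, Hist1h3d, Hist1h4j and Hist2h4 passed the filter through B6 libraries only, and Hist1h2ao, Hist1h4m, Hist2h3c1 and Hist3h2bb-ps through D2 libraries only. Because the filter used the strain in which these 8 genes are high, their strain differences are given as a description, without a p.

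**Figure D1:**
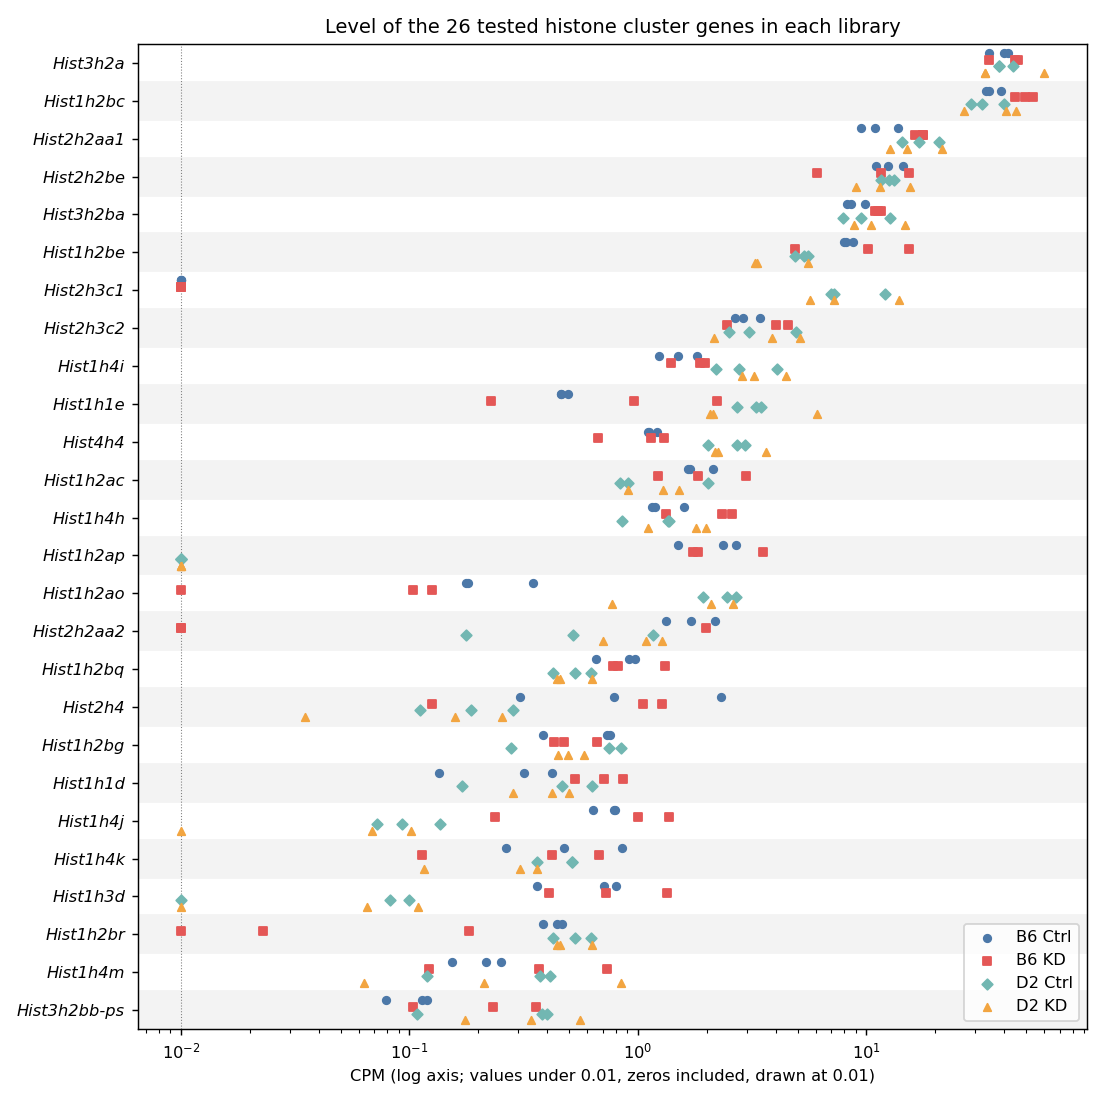
Level in CPM (log axis) of the 26 tested histone cluster genes in each of the 12 libraries, with 1 symbol per library coloured by group. Hist3h2a and Hist1h2bc lead in every group, Hist2h3c1 is at 0 in the 6 B6 libraries and Hist1h2ap at 0 in the 6 D2 libraries.

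Knockdown of Hp1bp3 called none of the 26 genes. In B6, where 2.64% of all genes were called, 0 of 26 had an adjusted p under 0.05 in edgeR's quasi-likelihood test, and 4 had an unadjusted p under 0.05, beside 20.6% of all genes. In D2, 0 of 26 were called at either level (background 0.0% adjusted, 2.85% unadjusted). Averaged over strains, 0 were called (background 0.0%) and 4 passed unadjusted (background 19.2%), and for the interaction of strain and treatment 0 were called (background 0.0%) and 2 passed unadjusted (background 5.91%). DESeq2 called 1 gene in B6 (background 10.1%) and 1 averaged over strains (background 7.4%), Hist1h2br in both. The median log2 fold change of the tested genes was 0.20 in B6 and -0.01 in D2, where that of all genes was 0.0025 and 0.0041. Without the gene listed at 0 in the strain, the medians were 0.21 and -0.02.

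In B6 the KD libraries of 6 genes did not overlap those of Ctrl, beside 27.9% of all genes. Of the 6, Hist1h1d, Hist1h2bc, Hist2h2aa1 and Hist3h2ba lay higher in KD (background 13.9%) and Hist1h2ao and Hist1h2br lower (background 14.0%). In D2 the groups overlapped for all 26 genes (background 5.96%).

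Hist1h2bc, an H2B gene, had 34.3, 38.9 and 33.3 CPM in B6 Ctrl and 53.7, 49.5 and 44.8 CPM in B6 KD. Its D2 values were 28.7, 31.99 and 40.11 CPM in Ctrl and 40.7, 45.0 and 26.8 CPM in KD. All 3 B6 KD libraries lay above B6 Ctrl, and in D2 the groups overlapped, with the library labelled D2 KD 3 lowest of the 12. The log2 difference was 0.48 ± 0.18 (SE) in B6, with edgeR adjusted p = 0.173, and 0.16 ± 0.18 in D2, with adjusted p = 1.0. Averaged over strains it was 0.32 ± 0.13 (edgeR adjusted p = 0.218), and without D2 KD 3 it was 0.41 with adjusted p = 0.042. The share of all genes called in the fit without D2 KD 3 is not given here, so this call does not set Hist1h2bc apart. Across the 12 fits that leave out 1 library, the averaged adjusted p ran from 0.042 to 0.416.

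Hist2h2aa1, an H2A gene, had 10.9, 13.7 and 9.48 CPM in B6 Ctrl and 17.6, 17.7 and 16.3 CPM in B6 KD. The D2 libraries had 14.4, 17.04 and 20.8 CPM in Ctrl and 15.1, 21.4 and 12.7 CPM in KD. B6 Ctrl was the low group, and the B6 KD libraries lay within the D2 range. The B6 difference was 0.61 ± 0.21 on the log2 scale (edgeR adjusted p = 0.127), the D2 difference -0.09 ± 0.20 (adjusted p = 1.0), and the interaction -0.69 ± 0.29 (unadjusted p = 0.0362, adjusted p = 0.824). Hist1h1d, an H1 gene, had 0.135, 0.421 and 0.318 CPM in B6 Ctrl and 0.710, 0.530 and 0.858 CPM in B6 KD, a log2 difference of 1.30 ± 0.49 (adjusted p = 0.166). In D2 its groups overlapped and the difference was -0.11 ± 0.49. Hist1h4h, an H4 gene, differed by 0.54 ± 0.23 averaged over strains (adjusted p = 0.239).

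The most abundant gene, Hist3h2a, had 41.5, 34.2 and 39.99 CPM in B6 Ctrl and 44.8, 46.0 and 34.3 CPM in B6 KD. The D2 values were 37.97, 37.87 and 44.0 CPM in Ctrl and 33.0, 60.0 and 32.9 CPM in KD. D2 KD 2 stood above all other libraries, and the groups overlapped in both strains. The log2 differences of 0.11 ± 0.22 in B6 and 0.07 ± 0.22 in D2 were smaller than their errors. Hist2h2be (-0.20 ± 0.29 in B6, -0.05 ± 0.29 in D2) and Hist3h2ba (0.34 ± 0.21 and 0.18 ± 0.21) were measured with like precision. Neither was called.

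Hist1h2br was the gene nearest to a call in B6. Its expected counts were 17.17, 11.61 and 13.25 in B6 Ctrl and 0.0, 4.16 and 0.91 in B6 KD, with a log2 difference of -2.90 ± 0.70 and edgeR adjusted p = 0.0527. The call depended on the tool, with adjusted p = 0.00402 in DESeq2, 0.0408 in limma-voom and 0.0468 in the newer quasi-likelihood method, and over all settings other than a left-out library up to 0.0719. Its near-identical copy Hist1h2bq had 24.42, 23.87 and 33.51 counts in B6 Ctrl and 46.14, 17.8 and 32.54 in B6 KD. The library with 0 counts on Hist1h2br was the one with the most on Hist1h2bq. Summed, the copies had 1.12, 1.36 and 1.35 CPM in B6 Ctrl and 1.31, 0.963 and 0.843 CPM in B6 KD, and the groups overlapped.

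**Figure D2:**
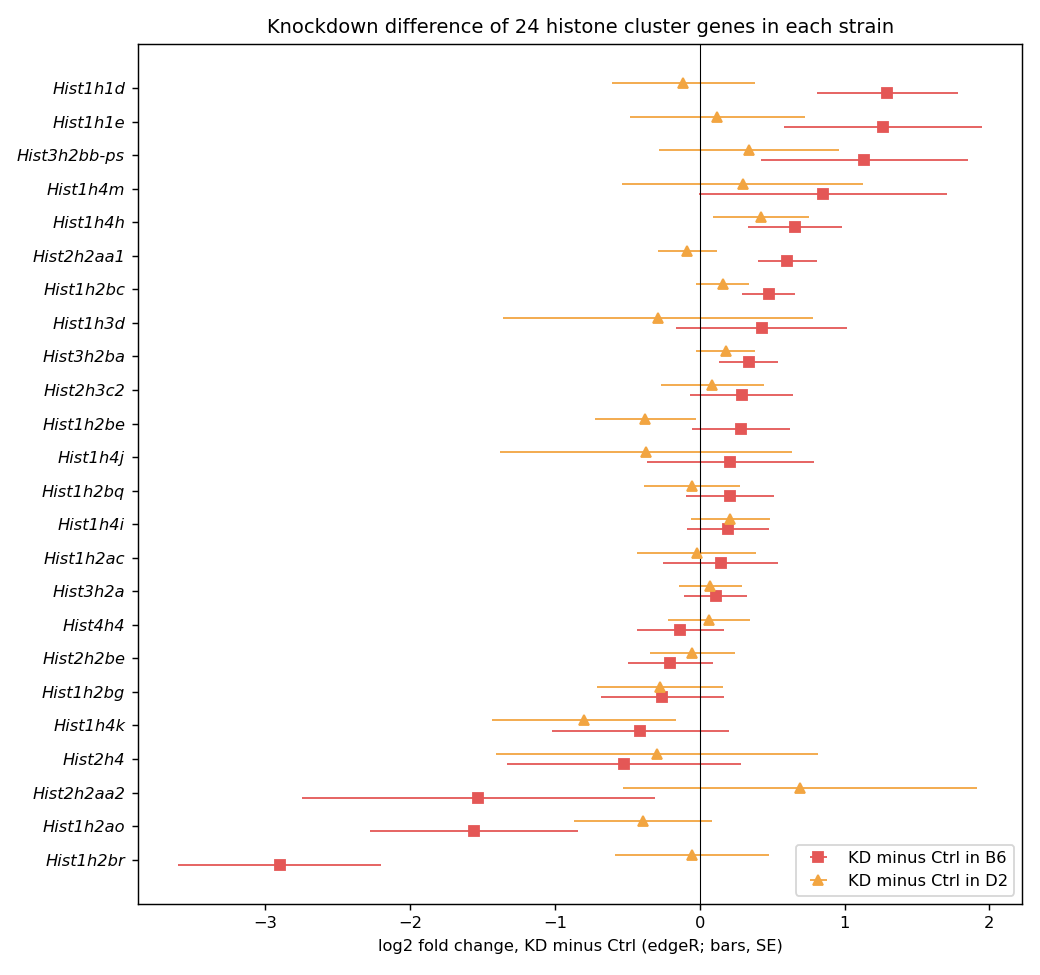
Log2 fold change of KD over Ctrl with its SE in B6 (squares) and D2 (triangles) for 24 tested genes, without Hist2h3c1 and Hist1h2ap, each listed at 0 in 1 strain. Most points lie within 1 log2 unit of 0, and Hist1h2br in B6 lies farthest, at -2.90.

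Several genes were high in the same libraries. B6 KD 1 and D2 KD 2 had the highest Hist1h1e of their strains, with 2.23 CPM beside 0.228 to 0.965 CPM in the other B6 libraries and 6.05 CPM beside 2.07 to 3.44 CPM in the other D2 libraries. The sum over all 49 genes was 187 CPM in B6 KD 1, 171 in B6 KD 2 and 132 in B6 KD 3, beside 130 to 140 CPM in B6 Ctrl. In D2 it was 204 CPM in D2 KD 2 and 174 in D2 Ctrl 3, beside 123 to 139 CPM in the other 4 libraries. The 10 interferon response genes, all called higher in B6 KD, summed to 1003, 1299 and 421 CPM in B6 KD 1, 2 and 3, beside 68.6 to 84.5 CPM in B6 Ctrl. In D2 they summed to 481 CPM in D2 KD 2, 358 in D2 KD 1, 209 in D2 Ctrl 3, 101 in D2 KD 3 and 79.4 to 80.2 CPM in the others. Microglial markers (6 genes, none called for knockdown) summed to 667, 630 and 433 CPM in B6 KD 1, 2 and 3 and to 339 to 389 CPM in B6 Ctrl. They were also high in D2 KD 2 (510 CPM) and D2 Ctrl 3 (507 CPM), beside 332 to 415 CPM in the other D2 libraries. Astrocyte markers (5 genes, 1 called in B6) summed to 1729 to 1806 CPM in B6 Ctrl and 2642 to 3831 CPM in B6 KD. Neuronal markers (7 genes, none called for knockdown) summed to 9131 to 10037 CPM in B6 Ctrl and 7357 to 8898 CPM in B6 KD, also without overlap. In D2 both sums overlapped. Astrocyte markers had 1824 to 3999 CPM in D2 Ctrl and 1897 to 3019 CPM in D2 KD, and neuronal markers 8862 to 10555 and 9050 to 9425 CPM. The part of these lists in the histone values was not tested.

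**Figure D3:**
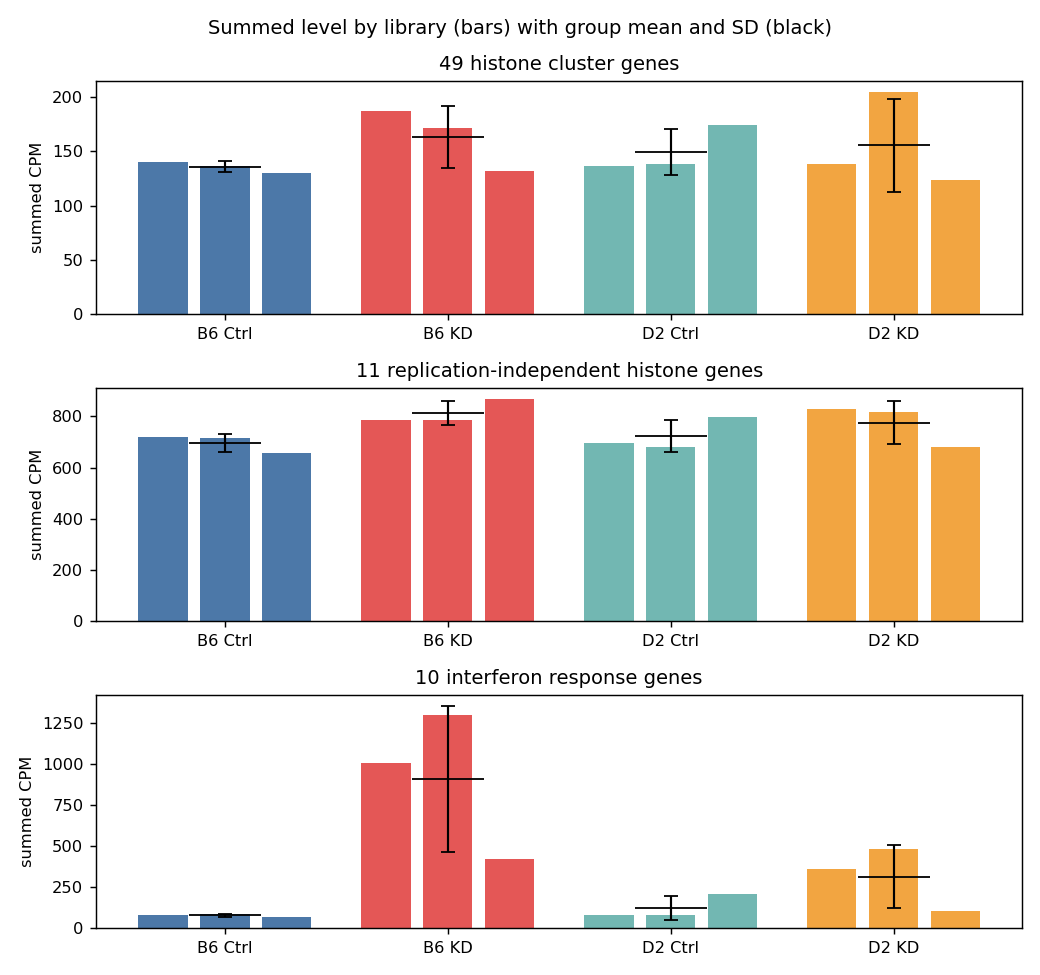
Summed CPM in each library (bars) with the group mean and SD (black) for the 49 histone cluster genes, the 11 replication-independent histone genes and the 10 interferon response genes. B6 KD 1, B6 KD 2, D2 Ctrl 3 and D2 KD 2 are the 4 highest libraries for the cluster genes, at 187, 171, 174 and 204 CPM.

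Genes that act with the histones were mostly not called. None of the 11 replication-independent variants was called in any of the 6 comparisons, and none of the 11 tested genes of histone transcription and 3′ processing, which include Slbp and Npat. Of all genes, 0.0% were called for knockdown averaged over strains, for knockdown in D2 and for the interaction, and 2.64% for knockdown in B6. For knockdown the absent calls are therefore no result about these lists. Between strains 14.0% of all genes were called in Ctrl and 21.3% averaged over treatments. Of 13 chaperones, which carry histones to DNA, Nasp alone was called, lower in D2 by 0.36 ± 0.08 on the log2 scale (edgeR adjusted p = 0.00759, averaged over treatments). Of 24 genes of DNA replication and cell division, 3 were called higher with knockdown in B6 (background 2.64% in either direction). None was called in D2 or for the interaction (background 0.0% in each). The 3 called in B6 were Cdk1, the kinase of entry into mitosis (0.205 ± 0.0799 CPM in Ctrl and 1.48 ± 0.679 CPM in KD), the mitotic kinase Aurkb (0.142 ± 0.0527 and 0.856 ± 0.211 CPM) and the replicative helicase subunit Mcm3 (3.65 ± 0.412 and 7.27 ± 0.719 CPM). For D2 against B6, averaged over treatments, 2 of the 24 were higher (background 8.64%) and 4 lower (background 12.7%). These counts do not set the list apart from all genes. Examples were Tyms, which makes thymidylate, at 0.95 ± 0.09 and the helicase subunit Mcm6 at -1.88 ± 0.13.

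The calls lay between strains. Averaged over treatments 12 of the 26 tested genes differed between D2 and B6, beside 21.3% of all genes, and in Ctrl mice alone 8 did, beside 14.0% of all genes. Of the 8 genes that passed the filter through 1 strain only, 6 were called, so the share of calls is no result about these genes. The 12 were 6 higher in D2 (background 8.64%) and 6 lower (background 12.7%). The 6 libraries of each strain did not overlap for 8 genes (background 14.5%): Hist1h2ao, Hist1h4i, Hist2h3c1 and Hist4h4 higher in D2 (background 5.5%), and Hist1h2ap, Hist1h2bq, Hist1h3d and Hist1h4j lower (background 9.01%). Of these, Hist1h2ao, Hist2h3c1, Hist1h2ap, Hist1h3d and Hist1h4j passed the filter only through the strain where they are high. The number without overlap is therefore no result about these genes either. Reads of each mouse were aligned to the genome of its own strain, so a strain difference in a gene also holds any difference between the genome sequences and their gene models, and the sources cannot be told apart.

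**Figure D4:**
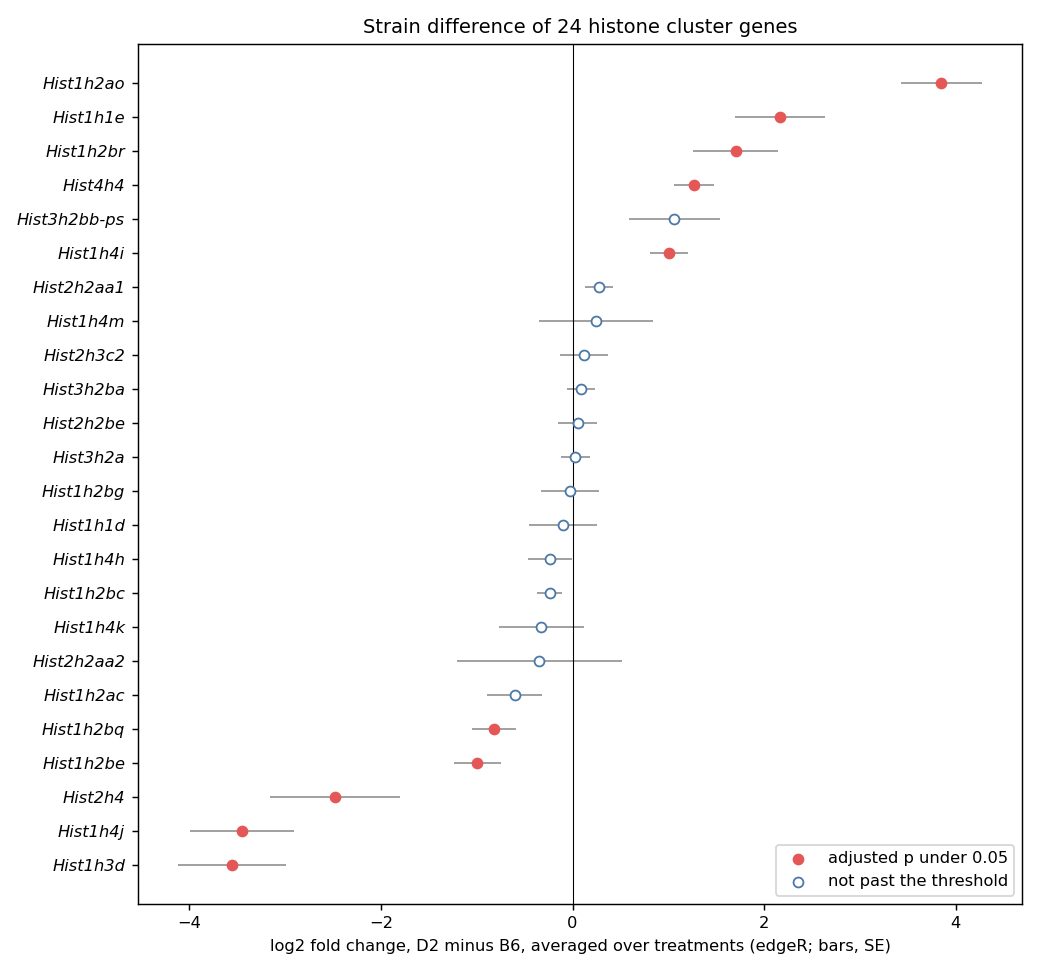
Log2 fold change of D2 over B6, averaged over treatments, with its SE for 24 tested genes, without Hist2h3c1 and Hist1h2ap, each listed at 0 in 1 strain. Filled points have an edgeR adjusted p under 0.05 and run from -3.55 for Hist1h3d to 3.85 for Hist1h2ao, both of which passed the filter through 1 strain only, while abundant genes such as Hist3h2a lie near 0.

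Among H3 genes, Hist2h3c1 was listed at 0 counts in all 6 B6 libraries and at 225.42, 127.84 and 325.65 in D2 Ctrl and 162.01, 525.97 and 228.2 in D2 KD. Set against a floor of 3 counts per library in B6, its level was at least 92.2-fold higher in D2. Its copy Hist2h3c2 had 3.33 ± 0.822 CPM in B6 and 3.59 ± 1.23 CPM in D2 (SD, n = 6), which overlapped. Summed, the pair had 2.45 to 4.53 CPM in B6 and 9.36 to 18.9 CPM in D2, a ratio of 3.73. The 2 genes share 666 aligned bases without a difference, and all 75-base windows of Hist2h3c1, the length of a read, occur in other transcripts of the annotation. All of them occur in Gm20634 (chr3:96245554-96248509), which overlaps Hist2h3c1 and Hist2h2aa2 on the same strand and has no row among the genes measured. Where such reads were counted in B6 was not tested, and this bears on the 92.2-fold bound, on the ratio and on the H3 sum. With the pair, the sum of the 8 H3 genes was 3.02 to 6.03 CPM in B6 and 9.65 to 19.2 CPM in D2, the only class whose strains did not overlap. Hist1h3d, another H3 gene, had 12.5 to 47.19 counts in the B6 libraries and at most 3.22 in D2. It was lower in D2 by a log2 difference of -3.55 ± 0.56.

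The H2A pair Hist1h2ao and Hist1h2ap exchanged places between strains. Hist1h2ap had 39.23 to 124.82 counts in B6 and 0 in all 6 D2 libraries, at least 20.9-fold lower in D2 by the same floor. Hist1h2ao had 0.0 to 12.89 counts in B6 and 29.15 to 79.52 in D2, a log2 difference of 3.85 ± 0.43. The sum of both was 2.43 ± 0.797 CPM in B6 and 2.08 ± 0.710 CPM in D2 (SD, n = 6) and the strains overlapped. Over 452 aligned bases the transcripts are identical. In GRCm38 they lie on chromosome 13 on opposite strands, Hist1h2ao at chr13:21810465-21810944 and Hist1h2ap at chr13:21833026-21833507.

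The H2B pair beside them, Hist1h2bq (chr13:21806612-21810197, minus strand) and Hist1h2br (chr13:21833743-21837530, plus strand), was split evenly in D2. In all 6 D2 libraries the 2 copies had the same expected count to the second decimal, such as 17.12 each in D2 Ctrl 1, and in B6 in 0 of 6. By gene, Hist1h2br was higher in D2 by 1.70 ± 0.44 on the log2 scale (edgeR adjusted p = 0.0168) and Hist1h2bq lower, at -0.82 ± 0.23 (adjusted p = 0.0231). Summed they had 1.16 ± 0.219 CPM in B6 and 1.03 ± 0.182 CPM in D2, with overlap. The longest transcripts of the pair align over 2002 columns with 1997 identical, and the whole difference is 1 stretch of 5 bases, bases 408 to 412 of Hist1h2bq, that Hist1h2br lacks. They are given here in capitals because a read must cover them, or an end that only 1 transcript has, to be told apart.
Hist1h2bq: agctccaagtgaCATAGtttgtgattcaa
Hist1h2br: agctccaagtgatttgtgattcaa
A like case is the H4 pair Hist1h4m and Hist1h4n, which differ at 1 of 402 aligned bases (G36A, counted from the start of the Hist1h4m transcript, with the base of Hist1h4m first), shown in capitals.
Hist1h4m: cagttttgtcttcGtcatgtctggtcg
Hist1h4n: cagttttgtcttcAtcatgtctggtcg
Hist1h4n had 1.36 to 15.08 counts in B6 and at most 1.0 in D2, and was not tested. Hist1h4m had 4.82 to 16.67 counts in B6 and 2.0 to 32.13 in D2.

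The chromosome 3 block held a further pair, Hist2h2aa1 and Hist2h2aa2, identical over 528 aligned bases. Hist2h2aa2 had 0 counts in B6 KD 1 and B6 KD 3 and 45.33 in B6 KD 2, beside 49.13 to 59.25 in B6 Ctrl. The sum of both was 12.2, 15.9 and 11.2 CPM in B6 Ctrl and 17.6, 19.7 and 16.3 CPM in B6 KD, without overlap, at a ratio of 1.37. The identifiers of these 2 genes carry each other's symbol in GENCODE M21, and the symbols used here are those of the deposited table. Both pairs of this block, like those of the Hist1 block, lie as mirror images, with Hist2h3c2 (chr3:96238108-96239127) and Hist2h2aa1 (chr3:96239749-96240276) on the minus strand and Hist2h2aa2 (chr3:96245497-96246082) and Hist2h3c1 (chr3:96246685-96248509) on the plus strand.

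**Figure D5:**
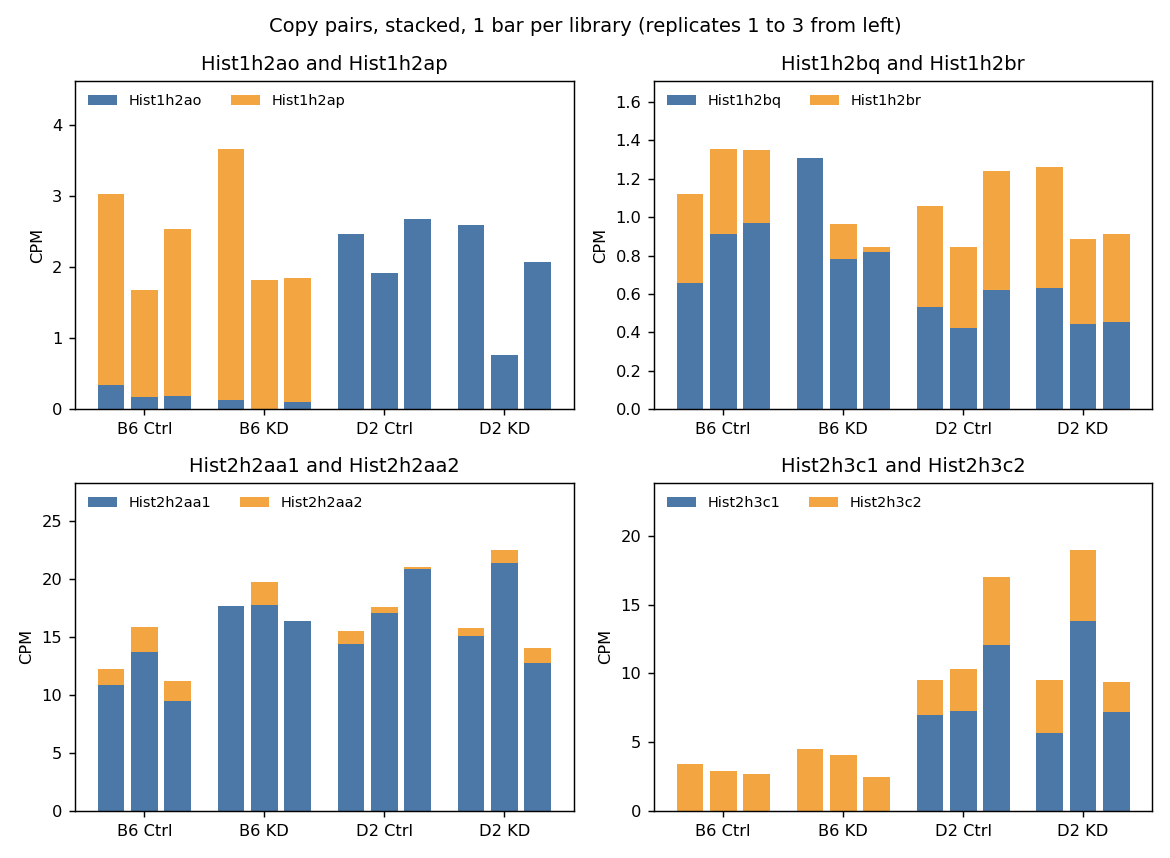
CPM of 4 pairs of near-identical copies, stacked, with 1 bar per library and the 4 groups from left to right. The Hist1h2ao and Hist1h2ap pair changes its share between strains while its total overlaps, Hist1h2bq and Hist1h2br are equal in D2, and the total of Hist2h3c1 and Hist2h3c2 is 2.45 to 4.53 CPM in B6 and 9.36 to 18.9 CPM in D2.

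In H4, 4 genes were called between strains, of which Hist1h4j and Hist2h4 passed the filter through B6 libraries only and are given as a description. Hist4h4 had 0.669 to 1.29 CPM in B6 and 2.03 to 3.64 CPM in D2, a log2 difference of 1.27 ± 0.21 (edgeR adjusted p = 0.000887). Hist1h4i had 1.23 to 1.97 CPM in B6 and 2.19 to 4.45 CPM in D2, a difference of 1.01 ± 0.20 (adjusted p = 0.0031). Neither gene's strains overlapped. Of the 75-base windows of Hist4h4 5.20% occur in other transcripts, some of them in Gm10845, a non-coding RNA that was at 0 in B6 and at 1571 to 3305 counts in D2. The share of windows found in other transcripts was 22.4% for Hist1h4i and 21.9% for Hist1h4j. The part of such reads was not tested for any of these genes. Hist1h4j had 9.43 to 48.18 counts in B6 and at most 3.22 in D2 (log2 difference -3.45 ± 0.54). Hist2h4 shares no window with another transcript and had 0.126 to 2.31 CPM in B6 and 0.0349 to 0.283 CPM in D2 (log2 difference -2.48 ± 0.68), with overlap. The call for Hist2h4 was lost in 6 of the 12 fits without 1 library, those without B6 Ctrl 3, B6 KD 1, B6 KD 2, D2 Ctrl 1, D2 Ctrl 3 or D2 KD 1. The sum of the 11 H4 genes, 4.85 to 9.88 CPM in B6 and 6.22 to 10.4 CPM in D2, overlapped.

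In the Hist1 cluster on chromosome 13, the H1 gene Hist1h1e (chr13:23620629-23622558) was higher in D2 and the H2B gene Hist1h2be (chr13:23583670-23621124) lower, and the annotation has them overlapping on the same strand. Hist1h1e had 0.493, 0.460 and 0.463 CPM in B6 Ctrl and 3.27, 2.70 and 3.44 CPM in D2 Ctrl. Averaged over treatments it differed by 2.17 ± 0.47 on the log2 scale (adjusted p = 0.00562). Hist1h2be had 8.76, 7.996 and 8.13 CPM in B6 Ctrl and 4.88, 5.57 and 5.35 CPM in D2 Ctrl, and differed by -0.99 ± 0.25 (adjusted p = 0.0128). Over all 6 libraries of each strain both genes overlapped. Hist1h1e had 2.23 CPM in B6 KD 1 and 2.07 CPM in D2 KD 1. Hist1h2be had 4.87 CPM in B6 KD 3 and 5.57 CPM in D2 Ctrl 2, and was not called in Ctrl mice alone. Of the windows of Hist1h1e 22.7% also occur in Hist1h2be, and the sum of the 2 genes was 8.77 ± 0.426 CPM in B6 Ctrl and 8.41 ± 0.341 CPM in D2 Ctrl. Over all libraries the sum was 10.0 ± 4.19 CPM in B6 and 7.93 ± 2.34 CPM in D2 (SD, n = 6), with overlap. Of the 5 most abundant genes none was called between strains, with Hist3h2a at 0.03 ± 0.15, Hist1h2bc at -0.24 ± 0.13, Hist2h2aa1 at 0.27 ± 0.14, Hist2h2be at 0.05 ± 0.21 and Hist3h2ba at 0.09 ± 0.15. Hist3h2a starts at the same base as the annotated Trim17 on the same strand, and 30.6% of its windows occur there. Trim17 had 225 to 556 counts in B6 and 46.0 to 64.0 in D2.

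In Ctrl mice alone the 8 called genes were Hist1h1e, Hist1h2ao, Hist1h4i, Hist2h3c1 and Hist4h4, higher in D2 (background 5.23%), and Hist1h2ap, Hist1h3d and Hist1h4j, lower (background 8.75%). The number called was sensitive to single libraries and ran from 3 without D2 Ctrl 1 to 9. It was 5 without B6 Ctrl 1, 4 without B6 Ctrl 2, 5 without B6 Ctrl 3 and 4 without D2 Ctrl 3. Of the 8, Hist1h2ao, Hist1h2ap, Hist1h3d, Hist1h4j and Hist2h3c1 passed the filter through 1 strain only. Averaged over treatments the number ran from 10 to 13. Besides Hist2h4 the call lost was that of Hist1h2bq, in 7 fits, without B6 Ctrl 2, B6 Ctrl 3, B6 KD 1, D2 Ctrl 1, D2 Ctrl 2, D2 KD 2 or D2 KD 3 (edgeR adjusted p up to 0.0663). For both comparisons the shares of all genes called in these fits are not given here, so the ranges show sensitivity only. Among genes too low to test, 13 had at most 3 counts in every library of 1 strain and more in some library of the other. The share of all genes like this is not given here, so the number is no result about them. Hist1h2bb had up to 0.407 CPM (D2 Ctrl 3) in D2 beside at most 2.23 counts in B6. Hist1h2ad had 2.78 to 8.88 counts in B6 and at most 2.84 in D2. Against the floor of 3 counts, these differences were at least 1.84-fold and 1.30-fold. For others the bound lay under 1, as for Hist1h2bh (0.357) and Hist1h3g (0.423), so no strain difference is shown for them.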

How the data were processed

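mRNA of 12 hippocampus libraries was measured. The authors trimmed and aligned reads to the genome of the mouse's own strain and estimated expression with RSEM 1.2.12 and Bowtie2 2.2.0. The deposited expected counts are not normalized, and the build named in the submitters' notes is GRCm38. The annotation release is not given in the sources used here. The authors also deposited a normalized signal per gene from DESeq2, which equals the expected count without decimals over 1 size factor for each library. Undoing this gave whole reads for 100% of 266784 values, within 0.01 reads, and it was used for Hp1bp3 only. A repeat run followed a clash of barcodes, and the sources used here do not say which ones lack reads of a run.

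Libraries were grouped by strain and treatment labels. Replicates were numbered in the order of deposit, and a number pairs nothing. Expected counts were rounded, filtered with filterByExpr and tested in edgeR 4.0.16 (R 4.3.3, quasi-likelihood test, robust, TMM, 1 mean per group) on all genes. A call is a Benjamini-Hochberg adjusted p under 0.05. SEs, taken from the fold change and its F value, are approximate. The test was checked on simulated counts. CPM used TMM library sizes. Intervals and floors of 3 counts cover counting error only.

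The genes and lists were chosen with earlier results of these data known. Named were the 8 most abundant genes, the called genes (where fewer than 3 were called, the 3 with the smallest p), the top gene of each class and the genes at or under 3 counts in 1 strain. Copy pairs, overlapping neighbours, genes without overlap and the end of the transcript were added after values were seen. Alternatives were DESeq2 1.42.0, limma-voom 3.58.1, other scaling, filter, rounding, quasi-likelihood method, the total count as covariate, and leaving out each library.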

Additional observations from a re-analysis of the deposited data

How the results depend on the processing

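Of the results recomputed under each alternative, 1047 kept their direction and their side of the threshold or stayed within the spread, 37 no longer passed the threshold, 5 came to pass it, 12 moved by more, and none reversed. The number of histone cluster genes called for knockdown averaged over strains was 0 in edgeR and 1 in DESeq2. It was 0 to 1 over the fits without 1 library, whose shares of all genes called are not given here. For knockdown in B6 it was 0 in edgeR and 1 in DESeq2, 1 in limma-voom and 1 in the newer quasi-likelihood method, Hist1h2br in each, and 0 in every fit without 1 library. For D2 against B6 in Ctrl it was 8, and 3 to 9 over the fits without 1 library. With no filter on low counts, 15 genes were called for D2 against B6 averaged over treatments, and 11 in limma-voom, which lost Hist2h4. With the total count as covariate 6 were called in Ctrl. The calls lost were Hist1h4i (edgeR adjusted p = 0.0683) and Hist1h3d, which passed the filter through B6 libraries only. The cause was not tested. Without the filter more histone cluster genes also entered the test. For alternatives other than DESeq2 and for the fits without 1 library, the shares of all genes called are not given here. The numbers called under them show sensitivity only. The log2 ratio of KD over Ctrl in D2 ran from -0.54 to 0.32 for the H1 sum and from -0.26 to 0.16 for the H2A sum over the fits without 1 library, both lowest without D2 KD 2. The Hp1bp3 difference kept an exact permutation p of 0.005 to 0.035. No paired analysis was possible because replicate numbers were given in the order of deposit and pair nothing. Depth limits what can be said of the 23 genes that the filter left out.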
